A study of Arabidopsis thaliana with 30 samples.

Results

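The cell cycle genes measured here are 43 loci of Arabidopsis thaliana, taken by a list of locus identifiers out of 32753 loci in the deposited table. The list was chosen with earlier results of these data known. They fall into 3 classes: 5 D-type cyclins, 15 genes of S phase and 23 genes of G2 and mitosis. RNA-seq libraries of roots from Col-0 seedlings 7 days old, treated for 4 h, gave the transcript levels in 30 libraries, which form 10 groups of 3. The RGF1 set held wild type with 100 nM RGF1, a root peptide hormone, and wild type with mock. The RGI1 set held the line RiD-RGI1/BAK1 with 1 µM rapamycin, the same line with mock, wild type with 1 µM rapamycin and wild type with mock. The RGI5 set held the line RiD-RGI5/BAK1 with 100 nM rapamycin, the same line with mock, wild type with 100 nM rapamycin and wild type with mock. The labels give mock as the agent of all control groups, and the sample titles name it DMSO, the solvent, in the RGI1 and RGI5 sets. Both lines, which go by the receptor name below, are in Col-0 and carry an engineered RGF1 receptor, RGI1 or RGI5, with an engineered co-receptor, BAK1, which rapamycin brings together. The sources used here do not give the promoters of the transgenes or say whether each line is 1 insertion event.

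In a growing root, division takes place in the meristem at the tip, in the pericycle where lateral roots begin, and in the young lateral root itself. D-type cyclins with their kinase partners release E2F transcription factors from the retinoblastoma protein RBR1, and E2F factors then switch on genes for DNA synthesis. Before mitosis a second wave of genes is switched on by MYB3R factors, which bind the mitosis-specific activator (MSA) element, and these genes encode B-type cyclins, B-type kinases and the machinery of the spindle and the cell plate. S phase genes and mitotic genes are therefore read apart below. RGF peptides and their receptors are known for keeping the root meristem active, and the series was made to follow lateral root formation.

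The labels were checked first. In the RGI1 line RGI1 stood at 204.2 TPM with mock, against 31.7 TPM in its wild type, and in the RGI5 line RGI5 stood at 47.0 TPM with mock, against 2.85 TPM in its wild type. TPM, a transcript measure scaled by length and by library, sum to the same total everywhere and hold no trace of sequencing depth, so counting error is unknown. Because the total is fixed, a gene that takes a larger share lowers the TPM of all others. The locus AT1G15405 alone held 3.95% to 11.9% of all TPM, depending on the library, and its part in the values below was not tested. Per library, 18999 to 19331 genes had at least 1 TPM. Of the marker lists for root tissue, the stem cell niche genes (PLT1, PLT2, PLT3, BBM, SCR, SHR and WOX5) summed to between 52.1 and 73.2 TPM in all libraries, and STM, a gene of the shoot meristem, was at 0.0974 TPM or less. In such bulk samples, fewer dividing cells and less RNA per dividing cell cannot be told apart. Since no label says that replicates came from separate plantings, p-values cover only the spread among these libraries, and that spread may be technical.

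The stretches just upstream of the genes were searched for these elements, and 6 of them are printed, chosen for their matches or for levels given below. Each is the 250 bases before the annotated start of the gene, written 5′ to 3′ on the strand of the gene, from the RefSeq sequence and annotation of TAIR10.1. The sources used here do not name the build behind the deposited values, and these coordinates are those of RefSeq. Capitals mark matches, on either strand, to the MSA core AACGG or to an E2F site, searched as TTTCCCGC, TTTCCCGG, TTTGGCGC or TTTGGCGG. No other spelling of an E2F site was searched, so sites spelled otherwise were not counted. Matches to the MSA core and to an E2F site overlapped in 0 of the members. CYCB1;2 held the most matches to the MSA core, and CYCB1;3 was higher in the wild-type mock groups of both rapamycin sets than in that of the RGF1 set. MCM3 is the member with 2 matches to an E2F site, and MCM5 is the member whose level varied least. E2FA was lower in the mock-treated RGI1 line, and CYCD3;1 differed most between untreated wild types.
CYCB1;2 (chr5:1861704-1861953, minus strand): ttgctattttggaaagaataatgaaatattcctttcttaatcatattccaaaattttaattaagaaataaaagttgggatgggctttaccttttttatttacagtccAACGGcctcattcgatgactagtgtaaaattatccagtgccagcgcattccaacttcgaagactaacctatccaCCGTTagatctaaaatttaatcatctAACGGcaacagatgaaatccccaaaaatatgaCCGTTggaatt
CYCB1;3 (chr3:3627274-3627523, minus strand): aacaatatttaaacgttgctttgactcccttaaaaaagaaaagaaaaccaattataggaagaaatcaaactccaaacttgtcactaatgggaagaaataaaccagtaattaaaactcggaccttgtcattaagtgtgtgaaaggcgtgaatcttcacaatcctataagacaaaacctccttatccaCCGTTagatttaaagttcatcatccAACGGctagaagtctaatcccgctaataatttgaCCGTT
MCM3 (chr5:18773707-18773956, minus strand): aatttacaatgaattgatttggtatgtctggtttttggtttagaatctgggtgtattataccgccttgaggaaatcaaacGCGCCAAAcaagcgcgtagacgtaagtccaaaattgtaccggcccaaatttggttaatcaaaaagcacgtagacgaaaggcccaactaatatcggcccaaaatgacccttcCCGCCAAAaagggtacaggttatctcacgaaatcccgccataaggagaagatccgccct
MCM5 (chr2:3527501-3527750, minus strand): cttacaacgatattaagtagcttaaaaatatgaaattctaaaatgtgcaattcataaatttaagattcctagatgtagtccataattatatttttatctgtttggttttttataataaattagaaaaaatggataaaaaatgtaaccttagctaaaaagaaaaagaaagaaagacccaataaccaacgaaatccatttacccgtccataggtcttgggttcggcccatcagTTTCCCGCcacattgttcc
E2FA (chr2:15119266-15119515, plus strand): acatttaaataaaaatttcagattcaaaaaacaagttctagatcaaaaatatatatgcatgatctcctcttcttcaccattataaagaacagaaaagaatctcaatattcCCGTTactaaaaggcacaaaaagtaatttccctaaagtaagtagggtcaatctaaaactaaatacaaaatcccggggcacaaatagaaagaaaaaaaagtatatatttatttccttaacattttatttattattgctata
CYCD3;1 (chr4:16357171-16357420, plus strand): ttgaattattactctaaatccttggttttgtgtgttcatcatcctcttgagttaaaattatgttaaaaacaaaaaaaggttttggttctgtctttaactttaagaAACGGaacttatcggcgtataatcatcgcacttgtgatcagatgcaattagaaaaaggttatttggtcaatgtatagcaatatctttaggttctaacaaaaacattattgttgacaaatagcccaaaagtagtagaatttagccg

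Counted in bases from the start of the gene, the first capital of each match stands at -143, -69, -43 and -11 in the first cyclin and at -64, -39 and -5 in the other B-type cyclin. It stands at -170 and -59 in MCM3, at -19 in MCM5, at -140 in E2FA and at -145 in the D-type cyclin. Over all members, an MSA core was found upstream of 13 of the 23 genes of G2 and mitosis (56.5%), 3 of the 15 S phase genes (20.0%) and 1 of the 5 D-type cyclins, where 20.6% of 27443 protein-coding genes held one. At least 2 MSA cores stood upstream of 8 of the 23 (34.8%), and of 3.62% of all protein-coding genes. An E2F site was found upstream of 5 of the 15 S phase genes (33.3%), which are MCM2, MCM3, MCM4, MCM5 and MCM6, all subunits of the helicase that opens DNA at replication forks. It was also found upstream of 1 of the 5 D-type cyclins, CYCD3;3, of 0 of the 23 genes of G2 and mitosis and of 1.89% of all protein-coding genes. Neither element, in the spellings searched, was found upstream of 20 of the 43 members. A match describes the letters in the window and does not show that a factor binds there.

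Across the whole series the cell cycle genes, taken as a list, varied somewhat less than all genes, and the S phase genes varied least. Over all 30 libraries the coefficient of variation of a member had a median of 9.64%, against 12.6% for the 20113 genes tested. Among genes with a mean of 5 to 100 TPM the median was 9.12% for the 39 members and 10.7% for all 13193 genes. S phase genes had a median of 7.61%, genes of G2 and mitosis 10.2% and D-type cyclins 11.2%. The ratio of the highest to the lowest of the 10 group means had a median of 1.24 over the members and 1.35 over all genes tested. Among genes with a mean of 5 to 100 TPM it was 1.22 over the 39 members and 1.29 over all. The steadiest member was MCM5 (AT2G07690), at a coefficient of variation of 6.18%, with a lowest library of 18.7 TPM and a highest of 24.6 TPM. The most variable was CYCD6;1 (AT4G03270), a D-type cyclin known from formative divisions of the ground tissue, at 42.1% around a mean of 0.87 TPM.

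TPM are per length, so members can be ranked by level. The highest mean over the 30 libraries belonged to TSO2 (AT3G27060), the small subunit of the ribonucleotide reductase that makes DNA precursors, at 99.3 TPM. It was followed by PCNA1 (AT1G07370) and PCNA2 (AT2G29570), the sliding clamp of DNA polymerase, at 55.6 and 51.3 TPM, and by RNR1, the large subunit of the reductase, at 43.7 TPM. Among genes of G2 and mitosis the highest were KNOLLE (AT1G08560), a syntaxin of the cell plate, at 39.1 TPM, the B-type kinase gene CDKB2;1 (AT1G76540) at 36.8 TPM and CDC20.1 (AT4G33270), an activator of the anaphase-promoting complex, at 34.4 TPM. The lowest of this class was CYCA2;1 at 2.55 TPM. The levels of PCNA1 and PCNA2 lay close together, and their libraries overlapped in range, from 43.9 to 61.5 TPM for PCNA1 and from 41.8 to 58.4 TPM for PCNA2.

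**Figure D1:**
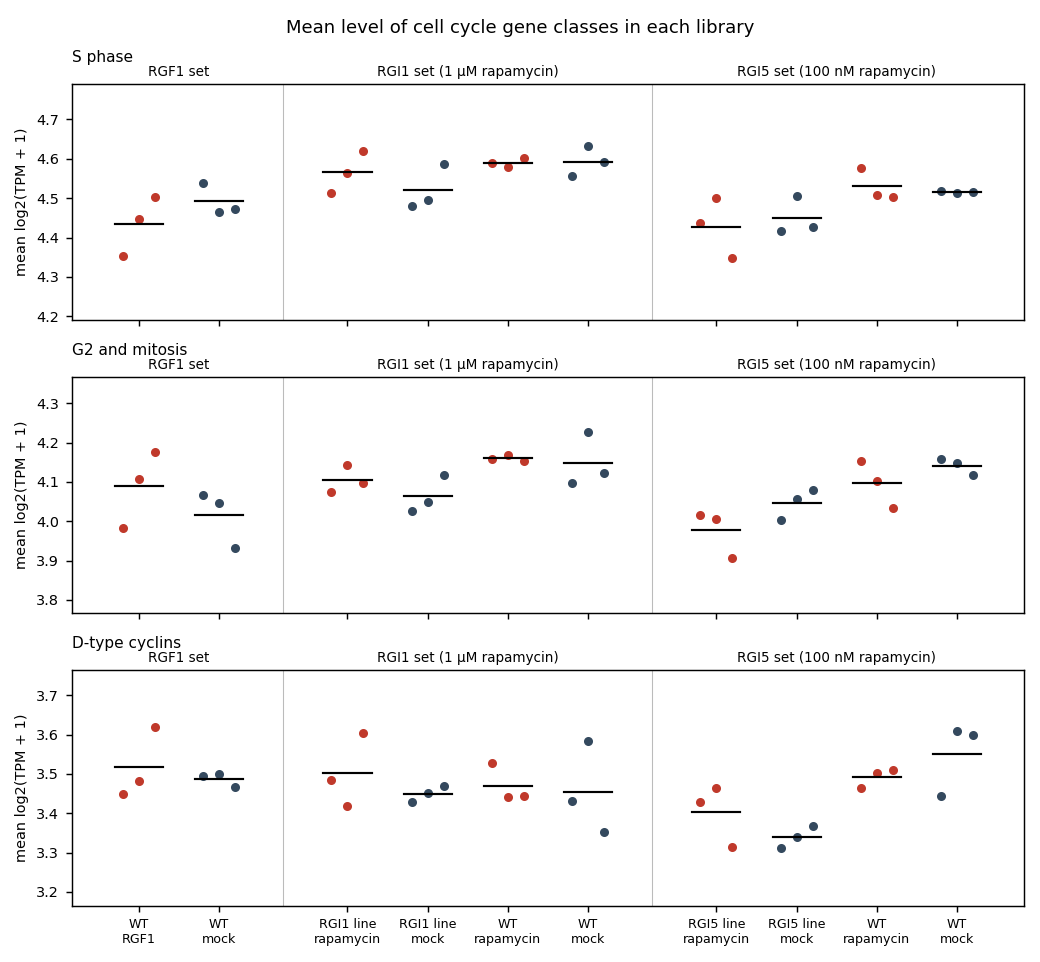
Mean log2(TPM + 1) over the 15 S phase genes, the 23 genes of G2 and mitosis and the 5 D-type cyclins, a point for each library and a line for each group mean, with the 3 sets side by side and RGF1 or rapamycin in red, on axes that do not start at 0. The S phase mean stayed between 4.35 and 4.63 and the mean of G2 and mitosis between 3.91 and 4.23 in all 30 libraries.

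The first question was whether 4 h of RGF1, or of rapamycin in either line, changed cell cycle transcripts. A member was called when its Benjamini-Hochberg adjusted p in limma, over all genes tested, was under 0.05. None of the 43 members was called with RGF1 against mock in wild type, where 27 genes (0.14% of 19274) were called, and 2 members (4.65%) had an unadjusted p under 0.05, against 10.1% of all genes. In the RGI1 line 0 of 42 members were called with rapamycin against mock, where 4.05% of all genes were called, and 3 members (7.14%) had an unadjusted p under 0.05, against 15.6% of all genes. In the RGI5 line 0 of 43 were called, as were 0 of all 19652 genes (0%), and 4 members (9.3%) had an unadjusted p under 0.05, against 11.1% of all genes. The intervals bound how large a change could have been. On the log2(TPM + 1) scale a limit of 0.5 is 1.41-fold in TPM + 1, and a larger fold in TPM for members at low levels. With RGF1 the 95% interval of 42 of 43 members lay within that limit in either direction. In the RGI1 line that of 42 of 42 members did. In the RGI5 line it did for 42 of 43, the exception being CYCD6;1, with an upper bound of 1.15.

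**Figure D2:**
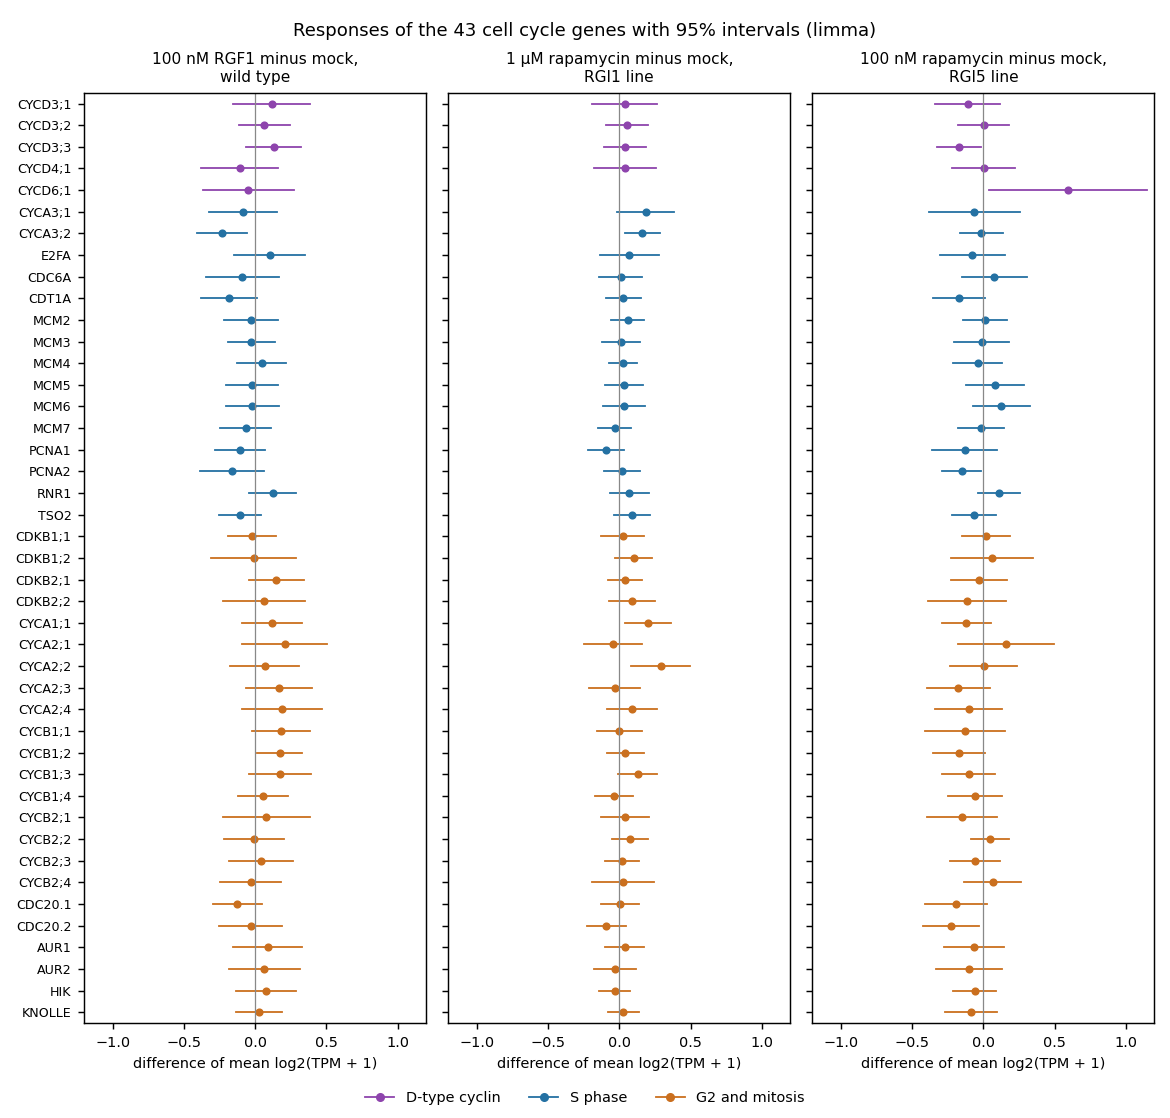
Difference of mean log2(TPM + 1), treated minus mock, for each cell cycle gene in the 3 responses, with 95% limma intervals, coloured by class. CYCD6;1 has no point in the RGI1 line because it did not pass the filter on low values there, and it has the widest interval in the RGI5 line, from 0.04 to 1.15.

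RGF1 left the classes close to mock. The S phase genes had a median log2 difference of -0.07, with 3 of 15 above 0, the genes of G2 and mitosis 0.07, with 17 of 23 above 0, and the D-type cyclins 0.06, with 3 of 5 above 0, while the median over all 19274 genes was -0.05, with 34.2% above 0. After quantile normalization the 3 medians were -0.00, 0.11 and 0.13, with 7 of 15, 22 of 23 and 3 of 5 above 0, and the median over all genes was -0.00. These are descriptions of lists, and no member in them passed the test. The mean of G2 and mitosis minus that of S phase, both in log2(TPM + 1), was -0.37, -0.34 and -0.33 in the libraries with RGF1, against -0.47, -0.42 and -0.54 in those with mock. These libraries did not overlap, but the 3 wild-type mock libraries of the RGI5 set, which had no RGF1, spanned -0.40 to -0.36 and so reached the range with RGF1.

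Among D-type cyclins, CYCD3;1 (AT4G34160), which links hormones to entry into the cycle, stood at 16.1, 13.5 and 18.9 TPM with RGF1, against 15.1, 13.5 and 15.6 TPM with mock, and the groups overlapped. Among S phase genes TSO2 stood at 87.8, 91.9 and 96.6 TPM with RGF1, against 105.0, 97.5 and 95.4 TPM with mock, and PCNA1 at 50.2, 53.3 and 57.3 TPM against 61.5, 53.0 and 58.9 TPM with mock. For both, the lowest library was one with RGF1 and the highest one with mock, with overlap between them. MCM5 stood at 19.8, 20.9 and 21.9 TPM with RGF1, against 22.9, 20.9 and 19.9 TPM with mock. The widest negative differences were those of CYCA3;2, a cyclin of S phase (-0.23, SE 0.08, adjusted p = 0.37), CDT1A, a licensing factor of replication origins (-0.18, SE 0.09), PCNA2 (-0.16, SE 0.10) and CDC20.1 (-0.12, SE 0.08), none of which passed the test. The 3 libraries of CYCA3;2 with RGF1 all lay below the 3 with mock, at 27.7 ± 1.4 TPM against 32.9 ± 2.4 TPM (mean ± SD, n = 3 each). Groups did not overlap for 11.6% of members and 15.6% of all genes in this comparison.

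Among genes of G2 and mitosis CYCB1;1 (AT4G37490), the B-type cyclin often used to mark dividing cells, stood at 13.2, 16.0 and 13.9 TPM with RGF1, against 12.5, 12.4 and 12.7 TPM with mock. All its libraries with RGF1 lay above those with mock, but the difference of 0.18 (95% interval -0.02 to 0.38) did not pass the test (adjusted p = 0.551). With RGF1 a lack of overlap, in either direction, was found for 11.6% of members and 15.6% of all genes. KNOLLE stood at 35.2, 38.1 and 40.1 TPM with RGF1, against 37.0, 38.2 and 35.9 TPM with mock. AUR1 (AT4G32830), an Aurora kinase of the spindle, stood at 23.3, 24.2 and 26.3 TPM with RGF1, against 24.3, 25.9 and 19.5 TPM with mock. Both overlapped. The widest positive differences were those of CYCA2;1 (0.21, SE 0.13), CYCA2;4 (0.19, SE 0.12), CYCB1;1 (SE 0.09) and CYCB1;3 (0.17, SE 0.09), and none of them passed the test.

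**Figure D3:**
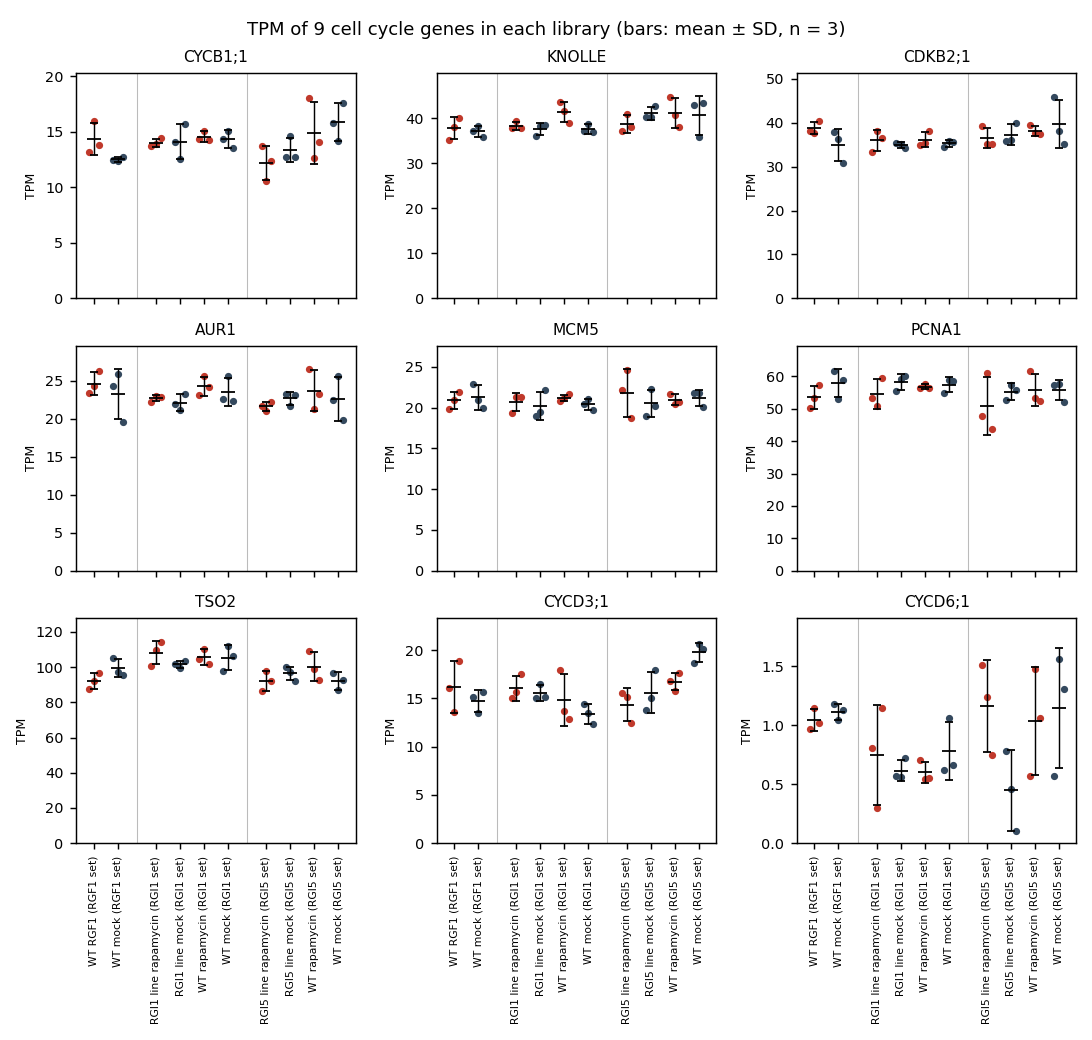
TPM of 9 cell cycle genes in each library of the 10 groups, with the mean and SD of each group and RGF1 or rapamycin in red. The panels of KNOLLE and AUR1 run level across the groups, CYCD3;1 is highest in the wild-type mock group of the RGI5 set at 18.7 to 20.6 TPM, and CYCD6;1 stays at or under 1.56 TPM.

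In the RGI1 line with rapamycin the medians of the 3 classes lay close to that of all genes. The median log2 differences were 0.04 for D-type cyclins, with 4 of 4 above 0, 0.03 for S phase, with 13 of 15, and 0.03 for G2 and mitosis, with 16 of 23. Over all 19634 genes the median was 0.03, with 61.1% above 0. After quantile normalization 3 of 4, 6 of 15 and 12 of 23 lay above 0, and the median over all genes was -0.00. CYCD3;1 stood at 15.0, 15.6 and 17.5 TPM with rapamycin, against 15.1, 16.5 and 15.1 TPM with mock. TSO2 stood at 100.9, 109.7 and 114.1 TPM with rapamycin, against 101.5, 99.7 and 103.7 TPM with mock. In both the groups overlapped. MCM5 stood at 19.4, 21.3 and 21.3 TPM with rapamycin, against 19.0, 19.4 and 22.2 TPM with mock, and PCNA1 at 53.4, 50.7 and 59.6 TPM against 55.4, 59.1 and 60.2 TPM with mock. KNOLLE stood at 37.7, 39.3 and 37.7 TPM with rapamycin, against 35.9, 38.2 and 38.5 TPM with mock. The libraries of these 3 genes overlapped as well, and the log2 differences were 0.03, -0.09 and 0.03.

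AUR1 stood at 22.2, 23.0 and 22.9 TPM with rapamycin in the RGI1 line, against 21.9, 21.1 and 23.3 TPM with mock. CYCB1;1 stood at 13.7, 14.0 and 14.4 TPM with rapamycin, against 14.1, 12.5 and 15.7 TPM with mock, and CDKB2;1 at 33.4, 38.1 and 36.6 TPM against 35.5, 35.2 and 34.2 TPM with mock. None of these separated the groups. CYCD6;1 did not pass the filter on low values in this set and was not tested. Its libraries stood at 0.804, 0.295 and 1.14 TPM with rapamycin, against 0.571, 0.557 and 0.720 TPM with mock. The member with the largest positive difference was CYCA2;2, an A-type cyclin of G2, at 6.67 ± 0.42 TPM with rapamycin and 5.26 ± 0.09 TPM with mock (0.29, SE 0.09, adjusted p = 0.131, n = 3 each). It was followed by CYCA1;1 (0.20, SE 0.07), CYCA3;1 (0.19, SE 0.09) and CYCA3;2 (0.16, SE 0.06), all A-type cyclins. The largest negative differences were those of PCNA1 (-0.09, SE 0.06), CDC20.2 (-0.09, SE 0.06), CYCA2;1 (-0.04, SE 0.09) and CYCB1;4 (-0.04, SE 0.06). None of the 8 passed the test.

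Wild-type roots with 1 µM rapamycin gave the background of the compound itself. Of 42 members 0 were called, as were 0 of all 19634 genes (0%), and 2 members (4.76%) had an unadjusted p under 0.05 in limma, against 6.57% of all genes. These were E2FA (-0.24, SE 0.10, adjusted p = 0.738) and KNOLLE, which stood at 43.5, 41.5 and 39.0 TPM with rapamycin, against 37.1, 38.7 and 36.8 TPM with mock (0.13, SE 0.05, adjusted p = 0.738). The 3 KNOLLE libraries with rapamycin all lay above the 3 with mock, and groups did not overlap for 7.14% of members and 11.3% of all genes. The other large differences were those of CYCB2;1 (0.17, SE 0.08), CYCA3;1 (0.13, SE 0.09) and CYCD3;1 (0.13, SE 0.10) on the positive side, and CYCA2;1 (-0.18, SE 0.09), CDC20.1 (-0.10, SE 0.06) and CDT1A (-0.07, SE 0.06) on the negative side. The difference between the response of the RGI1 line and that of wild type was called for 0 of 42 members and for 1.25% of all genes, and 1 member (2.38%) had an unadjusted p under 0.05 in limma, against 11.8% of all genes. That member was E2FA, at 0.31 (95% interval 0.02 to 0.60, adjusted p = 0.396). The next were CYCA2;2 (0.23, SE 0.13), CYCA3;2 (0.17, SE 0.08) and CYCA1;1 (0.16, SE 0.11), and on the negative side CYCB2;1 (-0.12, SE 0.11), KNOLLE (-0.11, SE 0.07), CYCD3;1 (-0.09, SE 0.15) and CDC20.2 (-0.08, SE 0.09).

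In the RGI5 line, which had a lower dose of rapamycin, the genes of G2 and mitosis had the lowest median of the 3 classes. The medians were 0.00 for D-type cyclins, -0.01 for S phase and -0.09 for G2 and mitosis, where 6 of 23 members were above 0, and 0.06 over all 19652 genes, of which 69.0% were above 0. After quantile normalization the median over all genes was -0.00 while D-type cyclins had -0.07, with 1 of 5 above 0, S phase -0.09, with 4 of 15 above 0, and G2 and mitosis -0.15, with 1 of 23 above 0. No member passed the test under either scaling. CYCB1;1 stood at 13.7, 10.6 and 12.3 TPM with rapamycin, against 12.8, 14.7 and 12.8 TPM with mock. CDKB2;1 stood at 39.2, 35.2 and 35.1 TPM with rapamycin, against 36.0, 36.0 and 40.0 TPM with mock. Both overlapped, with log2 differences of -0.13 and -0.03.

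KNOLLE in the RGI5 line stood at 37.1, 41.0 and 37.9 TPM with rapamycin, against 40.3, 40.2 and 42.8 TPM with mock, and AUR1 at 21.7, 21.0 and 22.2 TPM against 23.3, 21.7 and 23.1 TPM with mock. TSO2 stood at 86.7, 97.9 and 91.9 TPM with rapamycin, against 99.8, 97.2 and 92.2 TPM with mock. PCNA1 stood at 47.8, 60.9 and 43.9 TPM with rapamycin, against 52.6, 57.5 and 55.9 TPM with mock. In each of these the groups overlapped, and the PCNA1 libraries with rapamycin included both the lowest of these 6 and the highest. MCM5 stood at 22.2, 24.6 and 18.7 TPM with rapamycin, against 19.0, 22.3 and 20.2 TPM with mock. CYCD3;1 stood at 15.6, 15.1 and 12.4 TPM with rapamycin, against 13.8, 15.1 and 17.9 TPM with mock. Both overlapped.

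The member with the lowest level had the largest difference in the RGI5 line. CYCD6;1 stood at 1.51, 1.24 and 0.744 TPM with rapamycin, against 0.785, 0.461 and 0.0993 TPM with mock. The lowest library with rapamycin lay just under the highest with mock, and the difference of 0.59 on the log2(TPM + 1) scale (SE 0.25, adjusted p = 0.431) did not pass the test. The wild type of the same set stood at 0.565, 1.48 and 1.06 TPM with rapamycin, against 0.574, 1.56 and 1.31 TPM with mock, and 2 of the 3 mock libraries of the RGI5 line lay below all 6 of these. Among members with a mean of at least 1 TPM the largest positive differences were those of CYCA2;1 (0.16, SE 0.15), MCM6 (0.13, SE 0.09), RNR1 (0.11, SE 0.07) and MCM5 (0.08, SE 0.09). The largest negative ones were those of CDC20.2 (-0.23, SE 0.09, adjusted p = 0.388), CDC20.1 (-0.19, SE 0.10), CYCA2;3 (-0.18, SE 0.10) and CYCB1;2 (-0.17, SE 0.08). The coding sequences of CDC20.1 and CDC20.2 were 97.5% identical, so the split of reads between them is uncertain. Their sum stood at 54.4 ± 8.0 TPM with rapamycin and 62.6 ± 3.8 TPM with mock (n = 3 each).

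With 100 nM rapamycin in wild type, 0 of 43 members were called, and 1 gene of 19652 (0.00509%) was. Here 5 members (11.6%) had an unadjusted p under 0.05 in limma, against 7.54% of all genes. The lowest differences were those of CYCA1;1 (-0.30, SE 0.08, adjusted p = 0.421), CYCB2;4 (-0.29, SE 0.09), CYCB1;3 (-0.24, SE 0.08) and CYCD3;1 (-0.23, SE 0.10), and the highest those of CYCA2;2 (0.18, SE 0.11), PCNA2 (0.17, SE 0.06), E2FA (0.17, SE 0.10) and MCM6 (0.15, SE 0.09). CYCD3;1 stood at 16.8, 15.8 and 17.6 TPM with rapamycin, against 18.7, 20.6 and 20.1 TPM with mock, and the groups did not overlap. This held for 23.3% of members and 12.1% of all genes. The difference between the response of the RGI5 line and that of wild type was called for 0 of 43 members and 0 of all genes (0%), and 2 members (4.65%) had an unadjusted p under 0.05 in limma, against 10.8% of all genes. These were PCNA2 (-0.33, SE 0.09, adjusted p = 0.284) and CYCB2;4 (0.35, SE 0.13, adjusted p = 0.379). The next were CYCA2;1 (0.30, SE 0.22), CDC6A (0.25, SE 0.15) and CYCA1;1 (0.18, SE 0.11), and on the negative side CYCB2;1 (-0.29, SE 0.16), E2FA (-0.24, SE 0.15) and CYCA2;3 (-0.20, SE 0.14).

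The second question was whether carrying the engineered receptors set cell cycle transcripts apart before any rapamycin was added. In the mock-treated RGI1 line, by limma, 3 of 42 members were lower than in mock-treated wild type and 0 were higher, where 16.5% of all genes were called and 14.5% were lower. E2FA (AT2G36010), the E2F factor that promotes entry into S phase, stood at 3.65, 3.53 and 4.58 TPM in the RGI1 line, against 5.10, 5.70 and 5.76 TPM in wild type (-0.41, SE 0.10, adjusted p = 0.0136). CDKB1;2 (AT2G38620), a B-type kinase of G2, stood at 9.78, 9.71 and 9.31 TPM in the RGI1 line, against 10.6, 12.3 and 10.8 TPM in wild type (-0.20, SE 0.06, adjusted p = 0.0373). CDC20.1 stood at 29.4, 30.8 and 33.3 TPM in the RGI1 line, against 35.1, 38.9 and 35.3 TPM in wild type (-0.22, SE 0.06, adjusted p = 0.0283). For all 3 genes the groups did not overlap, which held for 28.6% of members and 39.4% of all genes in this comparison. The median over all genes tested was -0.09 in this comparison, and relative to it the 3 genes differed by -0.32, -0.11 and -0.12. After quantile normalization, which moved that median by 0.1, none of the 3 passed the test (adjusted p = 0.0508, 0.361 and 0.235), and after median-ratio scaling E2FA alone did (-0.32, adjusted p = 0.0398). None of the members passed the test without replicate 2 of the wild type with mock, or without replicate 1 or replicate 3 of the RGI1 line with mock.

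**Figure D4:**
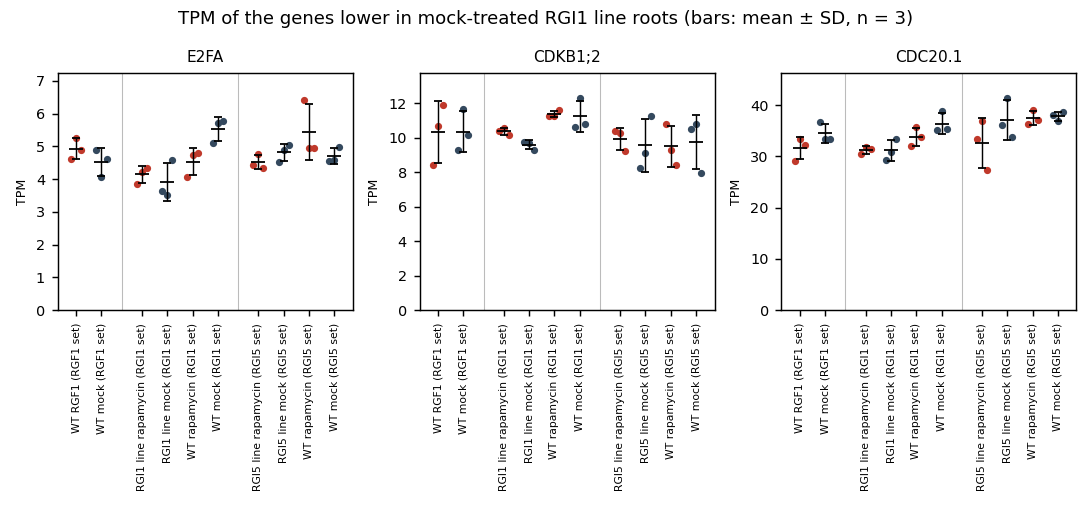
TPM of E2FA, CDKB1;2 and CDC20.1 in each library of the 10 groups, with the mean and SD of each group and RGF1 or rapamycin in red. In the RGI1 set the RGI1 line with mock lies below wild type with mock in all 3 panels, and for E2FA that wild type is the highest group of the series at 5.52 TPM.

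The wild type with mock of the RGI1 set had the highest E2FA level of the 10 groups, and the RGI1 line with mock had the lowest. E2FA with mock averaged 3.92 ± 0.57 TPM in the RGI1 line and 5.52 ± 0.37 TPM in the wild type of that set, and the wild type with mock stood at 4.90, 4.06 and 4.63 TPM in the RGF1 set and at 4.54, 4.60 and 4.99 TPM in the RGI5 set. With rapamycin in both, E2FA stood at 3.86, 4.22 and 4.35 TPM in the RGI1 line, against 4.06, 4.75 and 4.78 TPM in wild type, where the groups overlapped. The gene has 3 transcript models in the table. Model AT2G36010.1 stood at 0.945, 1.07 and 0.240 TPM in the mock-treated RGI1 line, against 2.39, 1.85 and 2.33 TPM in mock-treated wild type. Model AT2G36010.3 stood at 2.67, 2.32 and 4.34 TPM in the RGI1 line, against 2.32, 3.72 and 3.14 TPM in wild type. Model AT2G36010.2, the lowest of the 3, stood at 0.037, 0.132 and 0.0 TPM in the RGI1 line, against 0.388, 0.142 and 0.291 TPM in wild type. Models AT2G36010.1 and AT2G36010.2 thus separated the groups, the latter narrowly, and AT2G36010.3 did not. At these levels the division of reads between models is an estimate of the authors' software. The sum of CDC20.1 and its near-identical copy CDC20.2 stood at 56.8 ± 3.1 TPM in the RGI1 line and 62.9 ± 3.6 TPM in wild type (n = 3 each).

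In the mock-treated RGI1 line the median differences were -0.00 for D-type cyclins, -0.05 for S phase and -0.06 for G2 and mitosis, where 0 of 23 members were above 0, while over all genes the median was -0.09 and 24.1% were above 0. After quantile normalization the medians were 0.11, 0.05 and 0.06, with 18 of 23 genes of G2 and mitosis above 0, against 0.01 over all genes. After median-ratio scaling they were 0.10, 0.06 and 0.04, against 0.00 over all genes, so the direction of the classes changed with the scaling. Other genes moved with this comparison. The 5 green shoot genes (RBCS1A, CAB1, CAB2, CAB3 and PSBP1) summed to 53.0 to 66.4 TPM in the mock-treated RGI1 line, against 26.8 to 34.7 TPM in mock-treated wild type. RBCS1A rose by 1.04 and CAB1 by 1.23, which makes 2 of the 3 tested genes of that list called. The root stem cell niche genes summed to 55.8 to 64.4 TPM in the RGI1 line, against 68.2 to 73.2 TPM in wild type, and 2 of 7, PLT1 (-0.27) and PLT3 (-0.43), were lower. Of 5 lateral root primordium genes LBD29 was higher, and the list summed to 45.3 to 47.0 TPM in the RGI1 line, against 36.4 to 43.2 TPM in wild type. Of 6 root hair genes RHD2 was lower. Their part in the cell cycle values was not tested. With rapamycin in both, 0 of 42 members were called between the RGI1 line and wild type, where 8.05% of all genes were, and 0 members had an unadjusted p under 0.05 in limma, against 23.4% of all genes. The widest differences were those of CYCB2;1 (-0.15, SE 0.08), CDC20.2 (-0.13, SE 0.06), CDKB1;2 (-0.12, SE 0.06) and CYCA2;1 (-0.12, SE 0.09), and of CYCA2;2 (0.15, SE 0.09), CYCD3;1 (0.12, SE 0.10), CYCA3;2 (0.10, SE 0.06) and CYCD4;1 (0.09, SE 0.10).

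Between the RGI5 line and its wild type 0 of 43 members were called with mock, where 0.438% of all genes were, and 7 members (16.3%) had an unadjusted p under 0.05 in limma, against 13.9% of all genes. The class medians with mock were -0.14 for D-type cyclins, -0.06 for S phase and -0.08 for G2 and mitosis, with 11 of 43 members above 0, while the median over all genes was -0.05, with 37.2% above 0. After quantile normalization they were -0.06, -0.00 and -0.03, against 0.00 over all genes. With mock the lowest differences among members with a mean of at least 1 TPM were those of CYCD3;1 (-0.33, SE 0.10, adjusted p = 0.184), CYCB2;4 (-0.32, SE 0.09), CYCA1;1 (-0.30, SE 0.08, adjusted p = 0.126) and CDC6A, a licensing factor (-0.26, SE 0.11). CYCD3;1 stood at 13.8, 15.1 and 17.9 TPM in the RGI5 line with mock, against 18.7, 20.6 and 20.1 TPM in wild type with mock, without overlap. With mock this held for 30.2% of members and 20.6% of all genes. The highest differences were those of CYCA2;2 (0.20, SE 0.11), CYCA2;3 (0.07, SE 0.10), PCNA2 (0.07, SE 0.06) and TSO2 (0.07, SE 0.07). With rapamycin in both, 0 of 43 members were called, where 0.112% of all genes were, and 8 members (18.6%) had an unadjusted p under 0.05 in limma, against 14.0% of all genes. There the class medians were -0.07 for D-type cyclins, with 2 of 5 above 0, -0.11 for S phase, with 1 of 15, and -0.12 for G2 and mitosis, with 4 of 23, while the median over all genes was 0.02, with 55.7% above 0. Over all 43 members the median was -0.11, and -0.14 after quantile normalization and -0.13 after median-ratio scaling. The lowest were CYCA2;4 (-0.39, SE 0.11, adjusted p = 0.15), CDC20.2 (-0.31, SE 0.09), AUR2 (-0.29, SE 0.11) and CYCD3;3 (-0.27, SE 0.07), and the highest CDKB1;2 (0.06, SE 0.13), CYCA2;1 (0.06, SE 0.15), MCM5 (0.05, SE 0.09) and CYCB2;4 (0.04, SE 0.09). When all 30 libraries shared 1 estimate of spread, CYCA1;1 passed the test with mock (adjusted p = 0.0336), and CYCD3;3, CYCA2;4 and CDC20.2 did with rapamycin (adjusted p = 0.0396, 0.0402 and 0.0427), all lower in the RGI5 line.

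The largest differences that passed the test were between wild-type roots that are all labelled mock, a control that the titles call mock in the RGF1 set and DMSO in the RGI1 and RGI5 sets. Every set came with mock-treated wild type of its own, so the set, this difference in titles and whatever else differed between sets cannot be told apart. In the wild type of the RGI1 set 4 of 43 members were higher than in that of the RGF1 set and 0 were lower, where 14.5% of all genes were called and 7.85% were higher. These were RNR1 (0.21, SE 0.06, adjusted p = 0.0317), CYCB1;3 (0.29, SE 0.08, adjusted p = 0.0138), CYCB1;4 (0.28, SE 0.07, adjusted p = 0.0107) and CYCB2;3 (0.31, SE 0.08, adjusted p = 0.00853). RNR1 stood at 45.7, 48.1 and 44.6 TPM in the RGI1 set, against 40.2, 38.1 and 41.0 TPM in the RGF1 set. CYCB2;3 stood at 25.8, 27.3 and 28.1 TPM in the RGI1 set, against 24.2, 21.4 and 19.7 TPM in the RGF1 set. CYCB1;4 stood at 25.1, 28.2 and 26.3 TPM in the RGI1 set, against 22.4, 21.7 and 20.7 TPM in the RGF1 set. In all of these the sets did not overlap, which held for 32.6% of members and 34.7% of all genes. Without replicate 3 of the wild type with mock in the RGF1 set 2 members passed the test, and without replicate 2 of that in the RGI1 set 1 did. Tissue markers differed in the same comparison. BBM (0.42) of the stem cell niche, PRP3 (0.62) of root hairs and LBD29 (0.68) of lateral root primordia were higher, and RBCS1A (-1.05) of green shoots was lower. The green shoot genes summed to 26.8 to 34.7 TPM in the RGI1 set, against 47.0 to 49.0 TPM in the RGF1 set, and their part and that of the other markers was not tested.

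In the wild type of the RGI5 set 3 of 43 members were higher than in that of the RGF1 set and 0 were lower, where 5.13% of all genes were called and 1.89% were higher. CYCA1;1, an A-type cyclin of G2 and mitosis, stood at 19.3, 18.8 and 20.3 TPM in the RGI5 set, against 15.4, 14.5 and 13.1 TPM in the RGF1 set (0.42, SE 0.08, adjusted p = 0.00176). CYCB1;3 stood at 22.3, 21.1 and 24.0 TPM in the RGI5 set, against 16.3, 17.1 and 17.8 TPM in the RGF1 set (0.38, SE 0.08, adjusted p = 0.00422), and at 19.8, 22.1 and 21.5 TPM in the RGI1 set. The RGF1 set was the lowest of the 3 for this cyclin. The third, CYCD3;1, stood at 18.7, 20.6 and 20.1 TPM in the RGI5 set, against 15.1, 13.5 and 15.6 TPM in the RGF1 set (0.40, SE 0.12, adjusted p = 0.0423). Its call was lost with the replicate number as a block (adjusted p = 0.0708). The root hair genes EXPA7 (-0.44) and RSL4 (-0.50) were lower in the RGI5 set, where the list summed to 151.0 to 216.5 TPM, against 217.6 to 250.9 TPM in the RGF1 set, and their part in the cell cycle values was not tested.

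In the wild type of the RGI5 set against that of the RGI1 set 1 member was higher and 4 were lower, where 17.9% of all genes were called, 6.37% of them higher and 11.5% lower as a share of all genes tested. CYCD3;1 stood at 14.4, 13.5 and 12.3 TPM in the RGI1 set, below all libraries of the RGI5 set given above (0.53, SE 0.12, adjusted p = 0.00284), which is 1.44-fold on the log2(TPM + 1) scale and the largest difference of any member called in the 14 comparisons. CYCD3;2 was lower, at 20.8, 22.1 and 21.4 TPM in the RGI5 set, against 26.3, 29.2 and 24.0 TPM in the RGI1 set (-0.29, SE 0.07, adjusted p = 0.00883), so 2 members of the same D3 group differed in opposite directions. CYCB2;3 stood at 23.3, 19.4 and 22.2 TPM in the RGI5 set, against 25.8, 27.3 and 28.1 TPM in the RGI1 set (-0.31, SE 0.08, adjusted p = 0.00632). The S phase members called were CYCA3;2, at 32.0, 32.6 and 30.8 TPM in the RGI5 set, against 35.8, 37.9 and 37.5 TPM in the RGI1 set (-0.21, SE 0.06, adjusted p = 0.0186), and TSO2, at 96.9, 86.8 and 92.7 TPM in the RGI5 set, against 97.8, 111.8 and 106.2 TPM in the RGI1 set (-0.19, SE 0.06, adjusted p = 0.0429). Both lay below the RGI1 set in all libraries, and the sets did not overlap for 25.6% of members and 36.2% of all genes. Without replicate 2 of the wild type with mock in the RGI1 set 2 members passed the test, and without replicate 3 of that group or replicate 4 of the wild type with mock in the RGI5 set 3 did. Tissue markers differed here too. The 6 root hair genes summed to 151.0 to 216.5 TPM in the RGI5 set, against 238.7 to 261.2 TPM in the RGI1 set, and 4 of them were lower. The 5 lateral root primordium genes summed to 24.9 to 26.6 TPM in the RGI5 set, against 36.4 to 43.2 TPM in the RGI1 set, and 3 of them were lower. The 5 green shoot genes summed to 41.8 to 57.6 TPM in the RGI5 set, against 26.8 to 34.7 TPM in the RGI1 set, with RBCS1A (0.88) higher, and the stem cell niche gene BBM (-0.33) was lower. Their part in the cell cycle values was not tested.

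**Figure D5:**
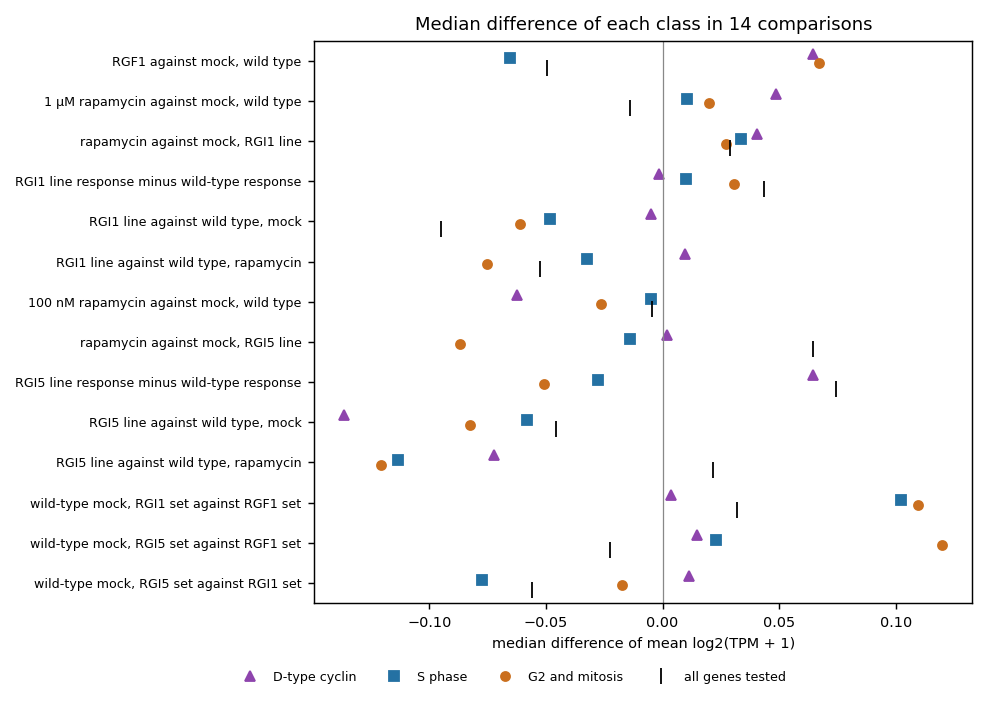
Median difference of mean log2(TPM + 1) over the genes of each class and over all genes tested, in the 14 comparisons, named with the group on top of the difference first. In the response to RGF1 S phase lies at -0.07 and G2 and mitosis at 0.07, and between the wild types of the RGI5 and RGF1 sets G2 and mitosis lies at 0.12.

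The regulators around these genes were read from lists of 22 other cell cycle genes, 12 inhibitors of cyclin-dependent kinases and 5 genes of the replication-coupled histone H3.1. With RGF1 0 of 22, 0 of 11 and 0 of 5 tested passed the test, and 0 of the 5 histone genes lay above 0 (median -0.16). With rapamycin in the RGI1 line 0 of 22 other cell cycle genes and 0 of 5 histone genes passed, and 1 of 12 inhibitors rose. This was SMR5, a member of the SIAMESE-RELATED family known for answering DNA damage and oxidative stress. SMR5 stood at 0.723, 2.32 and 2.16 TPM with rapamycin in the RGI1 line and was listed at 0 in its 3 libraries with mock (adjusted p = 0.0403). It stood at 3.46, 1.16 and 2.40 TPM with RGF1 and was listed at 0 in the 3 mock libraries of that set, which did not pass the test (adjusted p = 0.0578), and it stood at 3.83, 3.08 and 4.75 TPM in wild type with mock of the RGI5 set. The call in the RGI1 line was lost in 6 of 12 fits that left out 1 library and in 4 of 7 other alternatives. In the RGI5 line, and in either wild type with rapamycin, 0 genes of these 3 lists passed the test with rapamycin against mock, and 0 did in the differences between the responses of the lines and their wild types.

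Between the mock-treated RGI1 line and wild type 4 of 22 other cell cycle genes were lower and 0 were higher, where 14.5% of all genes were lower. MYB3R1, an activator that binds the MSA element, stood at 6.95, 7.12 and 6.95 TPM in the RGI1 line, against 9.42, 9.89 and 9.39 TPM in wild type (-0.40, SE 0.07, adjusted p = 0.00447). The others were RBR1 (-0.17, SE 0.05, adjusted p = 0.045), DEL1, an atypical E2F factor (-0.26, SE 0.08, adjusted p = 0.0454), and CYCA3;4 (-0.17, SE 0.05, adjusted p = 0.0334). MYB3R1 passed the test in all 12 fits that left out 1 library and in all 8 other alternatives, while after quantile normalization the adjusted p was 0.5 for RBR1, 0.312 for DEL1 and 0.536 for CYCA3;4. None of the 12 inhibitors and 5 histone genes passed the test there. With rapamycin in both, the inhibitor SMR7 was higher in the RGI1 line, at 13.2, 9.42 and 11.9 TPM, against 7.36, 8.69 and 5.06 TPM in wild type (0.65, SE 0.18, adjusted p = 0.0389), as 1 of 12 inhibitors (a call that held in 6 of 12 fits that left out 1 library), and 0 of 22 and 0 of 5 in the other lists passed. Between the RGI5 line and its wild type, with mock or with rapamycin, 0 genes of the 3 lists passed the test. Between wild types with mock, the RGI1 set against the RGF1 set had CYCA3;4 (0.24), MYB3R1 (0.25) and the histone gene HTR3 (0.24) higher and the inhibitor KRP2 (-0.45) lower. The RGI5 set against the RGF1 set had SMR5 higher, and the RGI5 set against the RGI1 set had SMR5 higher and CYCD1;1 (-0.43), CYCD2;1 (-0.27), RBR1 (-0.21), MYB3R1 (-0.24) and HTR2 (-0.25) lower.

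Marker genes of other root tissues gave a measure of what else differed between groups. In the response to RGF1 PUCHI, a regulator of young lateral root primordia, rose to 5.07 ± 0.24 TPM, against 1.48 ± 0.55 TPM with mock (1.32, SE 0.17, adjusted p = 0.0329), as 1 of 5 primordium genes, a call that held in 2 of 6 fits that left out 1 library. There none of the root hair, stem cell niche and green shoot genes passed the test. In the RGI1 line with rapamycin 4 of 6 root hair genes fell, namely PRP3 (-1.17), EXPA18 (-0.45), RSL4 (-0.27) and EXPA7 (-0.24), and the summed level of the 6 was 183.9 to 188.0 TPM with rapamycin, against 237.2 to 242.6 TPM with mock. The cell cycle genes in the same libraries were not called in either response.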

How the data were processed

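Polyadenylated RNA from roots was sequenced in 30 libraries. The authors deposited 1 table of TPM per transcript model, which sum to 1000000 in every library. The submitters' processing notes name Salmon and DESeq2 with no version. The index, annotation and genome build were not given in the sources used here. Depth per library, and the precision it gives, cannot be read from TPM.

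TPM of 40812 transcript models were summed to 32753 loci, of which 32048 were found in the RefSeq annotation of TAIR10.1, the source of gene names and upstream sequence. All 55 models of the 43 members and 95.4% of all models carried identifiers of that annotation. RGI1, RGI5 and BAK1 values include the engineered copies. The wild-type columns of the RGI1 set were matched to sample titles by elimination within the column names.

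Differences were tested on log2(TPM + 1), a scale that understates the change of low genes, with limma 3.58.1 in R 4.3.3. Each fit used an intensity trend and Benjamini-Hochberg adjustment over all genes tested, with a threshold of 0.05. Genes with at least 1 TPM in at least 3 libraries of a fit were tested. There was 1 fit for each set and 1 over all 30 libraries for the comparisons of wild-type mock groups. The members, gene lists and markers were chosen with earlier results of these data known. Every called member was named, and where none was called up to 4 members with the largest positive and up to 4 with the largest negative difference (mean in the fit of 1 TPM or more). Values per library were given for called members and for 9 genes kept throughout. Of the other lists up to 4 called genes were named in each comparison.

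The test was run on simulated data, with the changed genes drawn from those whose mean log2(TPM + 1) lay above that of 5 TPM. For RGF1, 43 of 67 genes changed by 0.5 on the log2 scale were recovered, 62 of 67 changed by 1 and 66 of 66 changed by 2, among 19131 genes. For rapamycin in the RGI1 line 54 of 67, 63 of 67 and 66 of 66 were recovered among 19504 genes, and in the RGI5 line 36 of 67, 64 of 67 and 65 of 66 among 19500 genes. False calls numbered 8 for RGF1, 10 in the RGI1 line and 7 in the RGI5 line. Recovery after adjustment depends on how many genes change. In the data 27 genes were called with RGF1 and 0 in the RGI5 line, so recovery there may be lower than in the simulation. Alternatives were quantile and median-ratio scaling, other filters (none, or a mean of 5 TPM), a pseudocount of 0.1 or 5, a replicate block, a single fit of all libraries, and leaving out each library.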

Additional observations from a re-analysis of the deposited data

How the results depend on the processing

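The 8 comparisons that measured a response, a difference between responses, or the RGI1 line against wild type with rapamycin had 0 members called under each alternative run. For the RGI1 line against wild type with mock, where 3 members were called, quantile normalization gave 0, median-ratio scaling 1 and a single fit of all 30 libraries 1, and leaving out 1 library gave 0 to 3. The single fit of all libraries called 1 member between the RGI5 line and wild type with mock and 3 with rapamycin, against 0 in the fit of the set alone. Between wild types with mock, the RGI1 set against the RGF1 set (4 members) gave 1 to 5 when 1 library was left out, and the RGI5 set against the RGI1 set (5 members) gave 2 to 6. The RGI5 set against the RGF1 set (3 members) gave 6 after quantile normalization, 5 after median-ratio scaling and 2 to 4 when 1 library was left out. The cause of these moves was not tested. No value changed its sign past the threshold under any alternative run.

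Replicate numbers of the titles did not pair the samples: over 28 pairs of libraries with the same number the correlation of deviations lay between -0.0771 and 0.12. With the replicate block 2 members were called in the mock-treated RGI1 line against wild type, 5 between the RGI1 and RGF1 sets, 2 between the RGI5 and RGF1 sets, 5 between the RGI5 and RGI1 sets and 0 in the other 10 comparisons. Depth cannot be read from TPM, so members near 1 TPM, such as CYCD6;1, carry an unknown counting error. The 3 libraries of a group limit all intervals.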
